A study of Schizosaccharomyces pombe with 9 samples.

Results

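The 10 genes described here encode enzymes of glycolysis in fission yeast, from hexokinase to pyruvate kinase. They were taken by gene identifier from a table of 5323 features and not by their values: *hxk1*, *hxk2*, *pfk1*, *fba1*, *tdh1*, *gpd3*, *pgk1*, *gpm1*, *eno101* and *pyk1*. The isomerase genes *pgi1* and *tpi1* and the enolase gene *eno102* of the same pathway are not among them. Polyadenylated RNA of *Schizosaccharomyces pombe* was sequenced from 3 strain labels in 3 media, and each of the 9 conditions has 1 library. The labels are tup11/12/php5d (*tup11*, *tup12* and *php5* deleted), tup11/12d (*tup11* and *tup12* deleted) and WT. Tup11 and Tup12 are corepressors, and Php5 is a subunit of the CCAAT-binding factor. All cultures were kept for 2 h in their medium. The glucose starved medium (YED) was yeast extract with 0.1% glucose and 3% glycerol, the nitrogen starved medium (MM-N) a minimal medium for nitrogen starvation with 1% glucose, to which the amino acids a strain requires were added, and the glucose rich medium (YER) yeast extract with 6% glucose. In the strain list of the study, the deleted *tup* genes carry *ura4* markers and several strains carry further auxotrophies, and which listed strain gave each library is not stated. Each strain label thus stands for 1 culture per medium.

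Glycolysis converts glucose to pyruvate in the cytosol and yields ATP and NADH. Fission yeast ferments glucose to ethanol when sugar is plentiful, and this flux runs through the same chain of enzymes. On glycerol, carbon enters the chain at the triose phosphates. The upper steps can then run towards glucose phosphates, except at phosphofructokinase, whose step is reversed by the separate enzyme fructose-1,6-bisphosphatase (*fbp1*).

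Values are given as TPM, read counts divided by feature length and scaled to a sum of 1000000 in each library, so that levels of different genes can be set side by side and a level is a share of its library. The libraries held 36652045 to 54303622 reads (median 46620606), and each value of the 10 genes rested on 7222 to 759025 reads. Differences have no replicate check and no p-value is given. Intervals of a ratio are exact Clopper-Pearson 95% intervals from the reads, which compare a pair of libraries and cover counting error only. A gene is called higher or lower when the log2 ratio of TPM + 1 is past 2-fold, and calls are set beside those of the 4810 features whose mean over the libraries reached 10 TPM. All 10 genes passed this minimum, with at least 100 TPM in every library. The libraries go by their labels because *tup12* kept 54.5 to 117 TPM in the 6 libraries labelled as lacking it, against 107 to 157 TPM in WT, while *tup11* was at most 0.42 TPM there. *php5* was lower in the libraries labelled as lacking it but kept 21.2, 30.2 and 8.92 TPM (1739, 1598 and 641 reads) in glucose starved, nitrogen starved and glucose rich tup11/12/php5d, against 74.8, 124 and 61.6 TPM in tup11/12d. The marker *ura4* had 0 TPM in every WT library and 36.1 to 179 TPM in the 6 mutant libraries. Comparisons with WT thus also differ in *ura4*, and the part of this difference was not tested. The 10 most abundant features took 18.2% of TPM in glucose starved tup11/12/php5d and 17.4% in glucose starved tup11/12d, against 7.54% to 13.8% in the other libraries. The glucose starved tup11/12/php5d library stood apart in scaling. The median of all features in it was 0.67 below its glucose rich library on the log2 scale. The TPM were also divided by size factors (the median ratio of a library to the geometric mean of all libraries), which ran from 0.606 in that library to 1.25. Calls of the 10 genes that change with size factors are given beside the deposited ones. Of 120 log2 ratios 17 changed sign, all of them short of 2-fold, and only some of these are given. The largest shift of a ratio was 0.68, in a comparison with the glucose starved tup11/12/php5d library. Each of the 10 coding sequences is a single segment, without introns, and its positions are those of the ASM294v3 annotation. In cultures measured in bulk, a change in every cell and a change in part of the cells cannot be told apart.

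The 10 genes together took a large part of every library. Their TPM summed to 4.46% of the glucose starved, 5.89% of the nitrogen starved and 6.09% of the glucose rich library labelled tup11/12/php5d. In tup11/12d the sums were 2.55%, 4.37% and 4.22% under glucose starvation, nitrogen starvation and glucose rich conditions. WT libraries had 2.70% upon glucose starvation, 3.64% upon nitrogen starvation and 4.17% under glucose rich conditions. Within every strain label the glucose starved library had the smallest share of deposited TPM, and within every medium tup11/12/php5d had the largest. In tup11/12/php5d the low starved share depended on the scaling. With size factors *hxk2*, *pfk1*, *fba1*, *tdh1*, *gpd3*, *pgk1* and *eno101* had their highest value of all libraries in glucose starved tup11/12/php5d. *gpm1* and *pyk1* had theirs in glucose rich tup11/12/php5d, and *hxk1* in nitrogen starved tup11/12d. Without *gpd3*, the glucose rich shares were 4.99% in tup11/12/php5d, 3.88% in tup11/12d and 4.16% in WT, and the glucose starved shares were 3.74%, 2.22% and 2.295%. Single genes differed widely in level. Over the 9 libraries the mean TPM ran from 339 for *hxk1* to 10128 for *tdh1*, and *tdh1* was never below rank 12 of all features. *gpm1* reached rank 1 under glucose rich conditions in tup11/12/php5d, at 13827 TPM.

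**Figure D1:**
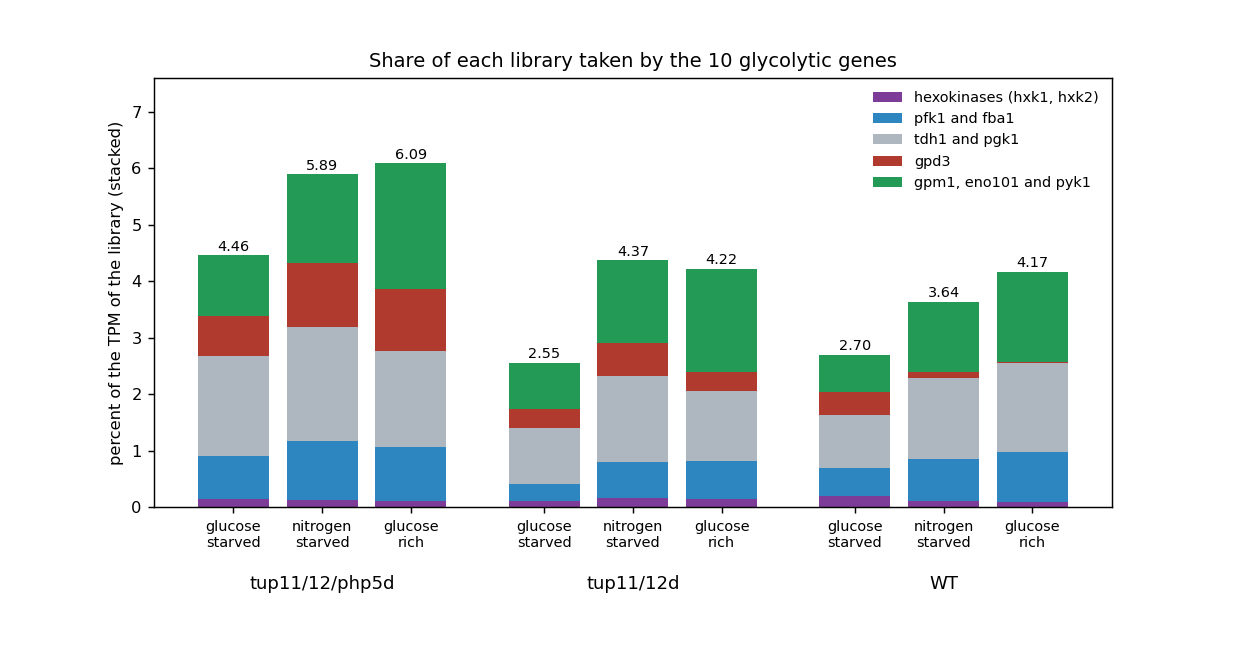
Percent of the TPM of each library (stacked bars, from 0) taken by the 10 glycolytic genes, split by step, with the total above each bar; 1 library per bar. The totals run from 2.55% in glucose starved tup11/12d to 6.09% in glucose rich tup11/12/php5d, and the *gpd3* part is nearly invisible in glucose rich WT cells.

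**Figure D2:**
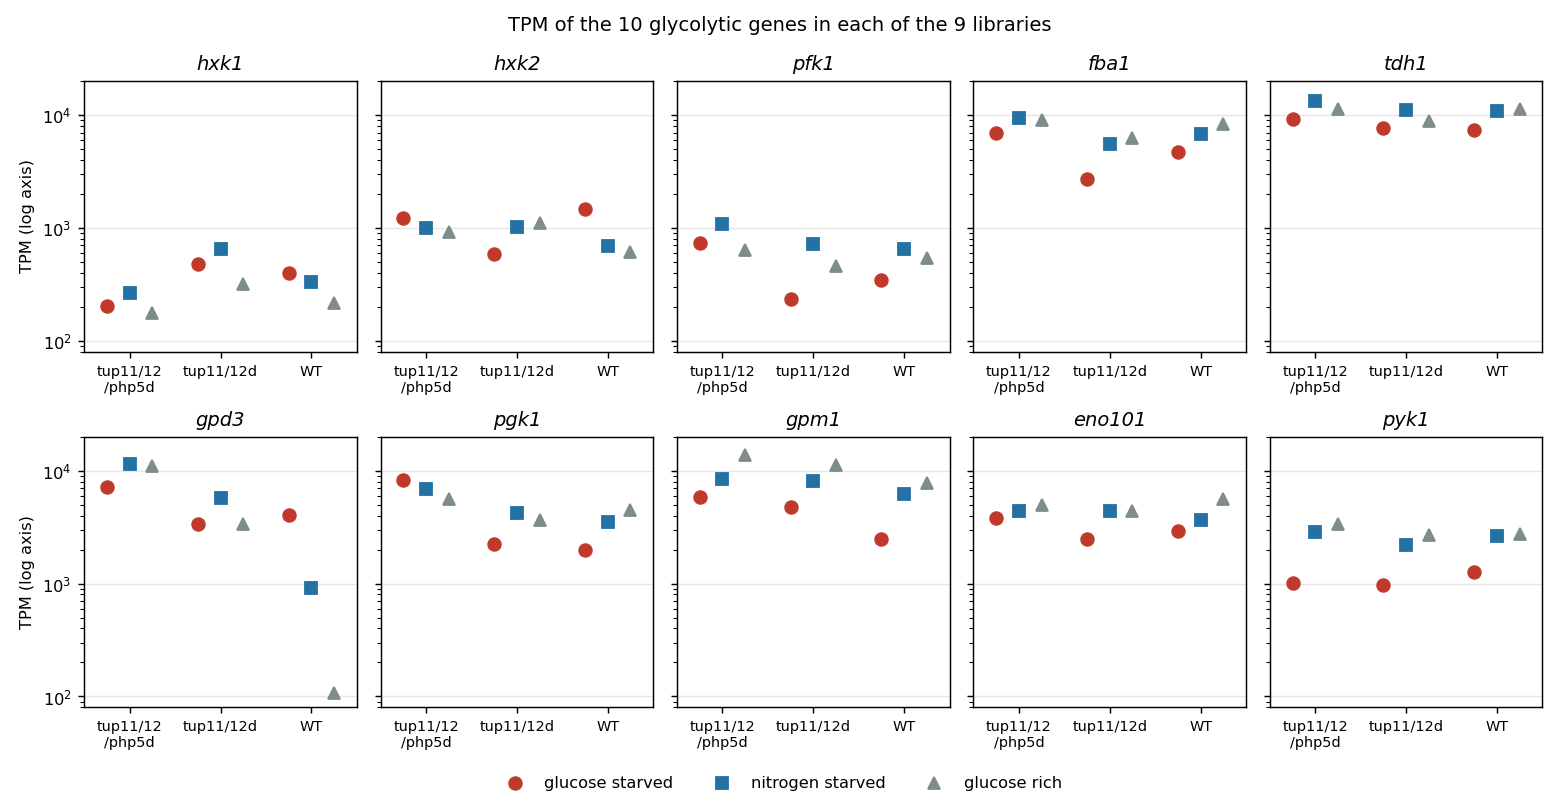
TPM (log axis) of each of the 10 genes in each of the 9 libraries, by strain label (x axis) and medium (symbol); each point is 1 library. *gpd3* spans 108 to 11339 TPM, and *tdh1* spans 7406 to 13289 TPM.

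Hexokinases phosphorylate glucose on entry and so trap it in the cell. The table lists a pair of them, *hxk1* (SPAC24H6.04, chromosome I, 483447 to 484901, minus strand) and *hxk2* (SPAC4F8.07c, chromosome I, 2665816 to 2667183, plus strand). Their coding sequences are 58.7% identical and share no run longer than 17 bases, and 0% of the 50-base stretches of either occur elsewhere in the genome. *hxk2* was the more abundant gene in all 9 libraries, and the part of *hxk1* in their summed TPM ran from 14.1% (glucose starved tup11/12/php5d) to 45.01% (glucose starved tup11/12d).

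*hxk2* had a different ratio of glucose starved to glucose rich under each label. It had 1232 TPM in the glucose starved, 999 in the nitrogen starved and 918 in the glucose rich library labelled tup11/12/php5d. The tup11/12d libraries had 592 TPM upon glucose starvation, 1025 upon nitrogen starvation and 1117 under glucose rich conditions. WT cells had 1476 TPM upon glucose starvation, 687 upon nitrogen starvation and 613 under glucose rich conditions. In deposited TPM, the highest and the lowest *hxk2* values both came from glucose starved libraries, of WT and tup11/12d. With size factors the highest was glucose starved tup11/12/php5d and the lowest nitrogen starved WT. The ratio of glucose starved to glucose rich was 1.34 in tup11/12/php5d (interval 1.33 to 1.35), 0.530 in tup11/12d (0.524 to 0.536) and 2.41 in WT (2.38 to 2.43). In tup11/12/php5d its log2 value of 0.42 became 1.10 with size factors. In tup11/12d the log2 value of −0.91 passed 2-fold lower with size factors, at −1.07. The WT increase, 1.27 on the log2 scale, came to 0.97 with size factors and then missed 2-fold. Under glucose rich conditions *hxk2* was 1.82-fold higher in tup11/12d than in WT (1.80 to 1.84), or 0.86 on the log2 scale, which reached 1.05 with size factors.

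*hxk1* was instead lower in tup11/12/php5d than in tup11/12d in every medium. It had 202 TPM upon glucose starvation, 265 upon nitrogen starvation and 177 under glucose rich conditions in tup11/12/php5d. The tup11/12d libraries had 485, 652 and 318 TPM under glucose starvation, nitrogen starvation and glucose rich conditions. WT had 399 TPM upon glucose starvation, 335 upon nitrogen starvation and 217 under glucose rich conditions. In each medium the value in tup11/12d was above that in WT. The ratio of tup11/12/php5d to tup11/12d was 0.417 upon glucose starvation (0.410 to 0.425), 0.406 upon nitrogen starvation (0.399 to 0.414) and 0.556 under glucose rich conditions (0.545 to 0.567). The first of these, −1.26 on the log2 scale, came to −0.59 with size factors, and the last, −0.84, to −1.01. An antisense noncoding transcript is annotated over 100% of the *hxk1* coding sequence and over 61.3% of that of *hxk2*, and because the libraries were not strand-specific, reads of either strand count alike.

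Phosphofructokinase commits sugar to glycolysis, and aldolase then cleaves the bisphosphate into triose phosphates. *pfk1* (SPBC16H5.02, chromosome II, 2297466 to 2300294, minus strand) had 740 TPM upon glucose starvation, 1078 upon nitrogen starvation and 635 under glucose rich conditions in tup11/12/php5d. With tup11/12d the values were 237 TPM upon glucose starvation, 723 upon nitrogen starvation and 459 under glucose rich conditions, and in WT 346, 648 and 545 TPM under glucose starvation, nitrogen starvation and glucose rich conditions. The glucose starved library was the lowest of its label in tup11/12d and WT but not in tup11/12/php5d. Between the labels, *pfk1* was 3.12-fold higher in tup11/12/php5d than in tup11/12d upon glucose starvation (3.08 to 3.15), against 1.49-fold upon nitrogen starvation (1.48 to 1.504) and 1.38-fold under glucose rich conditions (1.37 to 1.40). Antisense noncoding transcripts are annotated over 35.6% of the *pfk1* coding sequence.

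Aldolase, *fba1* (SPBC19C2.07, chromosome II, 1688367 to 1689443, plus strand), was the more abundant of both steps. It had 6926 TPM upon glucose starvation, 9373 upon nitrogen starvation and 8979 under glucose rich conditions in tup11/12/php5d. In tup11/12d its values were 2718 TPM upon glucose starvation, 5544 upon nitrogen starvation and 6212 under glucose rich conditions. WT cells held 4705 TPM upon glucose starvation, 6851 upon nitrogen starvation and 8397 under glucose rich conditions. As for *pfk1*, the glucose starved tup11/12d library had the lowest value of the series. Its ratio to the glucose rich library of the same label was 0.437 (0.435 to 0.440), and glucose starved tup11/12/php5d was 2.55-fold above glucose starved tup11/12d (2.53 to 2.56). In WT the starved to rich ratio was 0.560 (0.558 to 0.563), short of 2-fold as deposited (−0.84 on the log2 scale) and past it with size factors (−1.14).

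Glyceraldehyde-3-phosphate dehydrogenase, which oxidises triose phosphate and makes NADH, is encoded by a pair of genes whose levels varied to very different degrees. *tdh1* (SPBC32F12.11, chromosome II, 2807637 to 2808647, plus strand) varied little in deposited TPM. It had 9276 TPM upon glucose starvation, 13289 upon nitrogen starvation and 11284 under glucose rich conditions in tup11/12/php5d. The tup11/12d libraries had 7713, 11142 and 8816 TPM under glucose starvation, nitrogen starvation and glucose rich conditions, and those of WT 7406, 10922 and 11309 TPM. As deposited, none of its log2 ratios between strains or media was past 2-fold, and its highest value was 1.79 times its lowest (2.497 times with size factors).

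*gpd3* (SPBC354.12, chromosome II, 578731 to 579738, plus strand) was high in most libraries and low in glucose rich WT. It had 7196 TPM upon glucose starvation, 11339 upon nitrogen starvation and 11053 under glucose rich conditions in tup11/12/php5d. In tup11/12d the values were 3360 TPM upon glucose starvation, 5739 upon nitrogen starvation and 3388 under glucose rich conditions. WT cells had 4034 TPM upon glucose starvation, 909 upon nitrogen starvation and 108 (7222 reads, rank 1237 of all features) under glucose rich conditions. All 6 mutant libraries were thus above glucose rich and nitrogen starved WT, and in each medium tup11/12/php5d was above tup11/12d. Upon glucose starvation, the ratio of tup11/12d to WT was 0.833 (0.828 to 0.838), −0.26 on the log2 scale and 0.06 with size factors.

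Under glucose rich conditions, *gpd3* was 102-fold higher in tup11/12/php5d than in WT (interval 100.1 to 105), 31.4-fold higher in tup11/12d than in WT (30.7 to 32.1) and 3.26-fold higher in tup11/12/php5d than in tup11/12d (3.25 to 3.28). These ratios share libraries and are not independent. In WT cells it was 37.4-fold higher in the glucose starved (36.5 to 38.3) and 8.42-fold higher in the nitrogen starved (8.22 to 8.63) than in the glucose rich library. Neither ratio passed 2-fold under the other labels. In tup11/12/php5d the ratio to the glucose rich library was 0.651 upon glucose starvation (0.649 to 0.654) and 1.03 upon nitrogen starvation (1.02 to 1.03). In tup11/12d it was 0.992 (0.985 to 0.998) upon glucose starvation and 1.69 (1.68 to 1.70) upon nitrogen starvation. The value of glucose starved tup11/12/php5d, −0.62 on the log2 scale, came to 0.06 with size factors.

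The part of *gpd3* in the summed TPM of the pair was 43.7%, 46.0% and 49.5% in glucose starved, nitrogen starved and glucose rich tup11/12/php5d, 30.3%, 34.0% and 27.8% in tup11/12d, and 35.3%, 7.68% and 0.945% in WT. The sum itself was 16472, 24628 and 22337 TPM in glucose starved, nitrogen starved and glucose rich tup11/12/php5d, and 11073, 16880 and 12204 TPM in tup11/12d. In deposited TPM it was nearly level in WT, at 11439 TPM upon glucose starvation, 11831 upon nitrogen starvation and 11417 under glucose rich conditions, and with size factors these sums were 9469, 10132 and 11632. Taken as a single feature, a choice made after the data were seen, the pair was past 2-fold in tup11/12/php5d over WT upon nitrogen starvation (a ratio of 2.08) and close to it under glucose rich conditions (1.96). In the comparisons between media, between tup11/12/php5d and tup11/12d and between tup11/12d and WT, the highest log2 ratio of the sum was 0.87 (tup11/12/php5d over tup11/12d under glucose rich conditions). With size factors the sum was also past 2-fold upon glucose starvation, with log2 ratios of 1.24 for tup11/12/php5d over tup11/12d and 1.52 for tup11/12/php5d over WT.

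**Figure D3:**
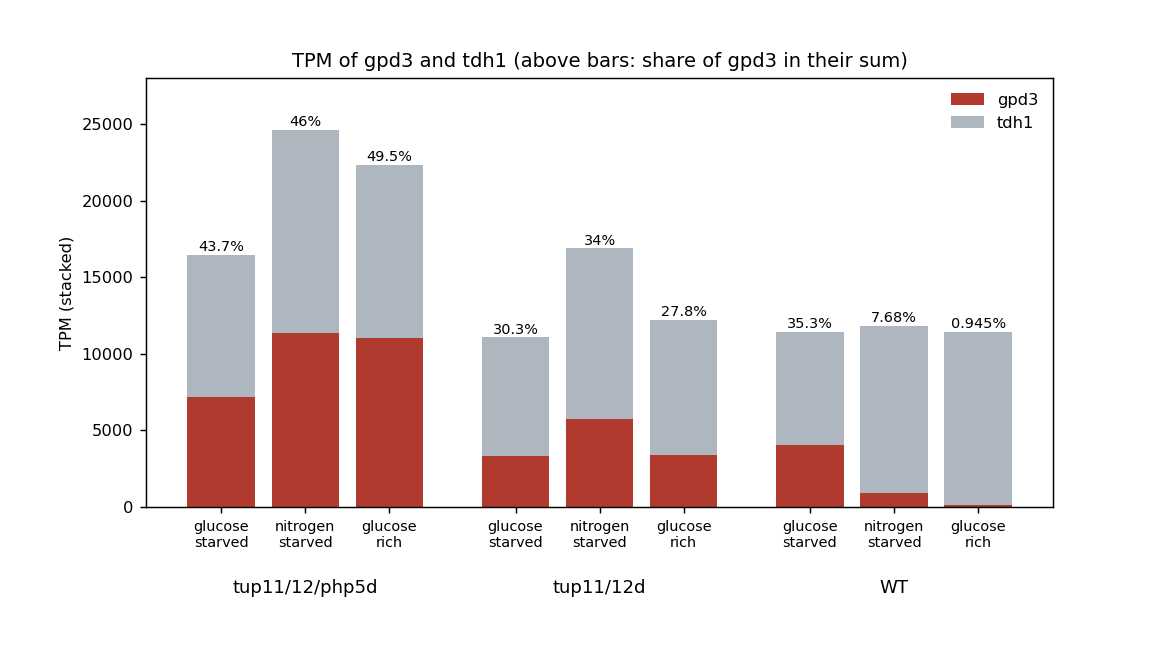
Stacked TPM of *gpd3* and *tdh1* in each library (bars from 0, 1 library per bar), with the share of *gpd3* in their sum above each bar. The share is 49.5% in glucose rich tup11/12/php5d and 0.945% in glucose rich WT, while the WT sums stay between 11417 and 11831 TPM.

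Because the pair is nearly identical in sequence, the coding sequences were compared. Over 1008 aligned bases, 940 (93.3%) were identical, with a longest identical run of 203 bases, and 24.4% of the 50-base stretches of *gpd3* also occur in *tdh1*. How the counting treated reads that fit both places is not stated. In glucose rich WT, *gpd3* was at 0.954% of the TPM of *tdh1*. The start of both coding sequences (RefSeq, ASM294v3, bases 1 to 120 of each) is shown because it holds 18 of the differing bases, in capitals, which separate reads of the genes:
gpd3, chromosome II, 578731 to 578850, plus strand: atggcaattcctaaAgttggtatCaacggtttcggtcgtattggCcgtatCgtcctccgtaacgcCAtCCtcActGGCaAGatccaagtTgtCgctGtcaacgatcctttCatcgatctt
tdh1, chromosome II, 2807637 to 2807756, plus strand: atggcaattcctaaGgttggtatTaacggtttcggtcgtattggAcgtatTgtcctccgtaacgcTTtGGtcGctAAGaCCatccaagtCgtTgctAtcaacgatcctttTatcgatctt
An antisense transcript is annotated over 32.2% of the *gpd3* coding sequence and over none of *tdh1*.

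Phosphoglycerate kinase makes the first ATP of the pathway. *pgk1* (SPBC14F5.04c, chromosome II, 4158172 to 4159416, minus strand) had 8287 TPM upon glucose starvation, 6887 upon nitrogen starvation and 5658 under glucose rich conditions in tup11/12/php5d. Its tup11/12d values were 2235, 4199 and 3638 TPM under glucose starvation, nitrogen starvation and glucose rich conditions, and in WT 1976, 3495 and 4450 TPM. Glucose starvation went with the lowest *pgk1* value in tup11/12d and WT, and with the highest in tup11/12/php5d. The ratio of glucose starved to glucose rich was 1.46 in tup11/12/php5d (1.46 to 1.47), 0.614 in tup11/12d (0.611 to 0.618) and 0.444 in WT (0.441 to 0.447). Upon glucose starvation *pgk1* was 3.71-fold higher in tup11/12/php5d than in tup11/12d (3.69 to 3.73) and 4.19-fold higher than in WT (4.17 to 4.22). An antisense noncoding transcript is annotated over 100% of its coding sequence, and its part in these reads was not tested.

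The lower steps rearrange phosphoglycerate, dehydrate it and pass the last phosphate to ADP. The phosphoglycerate mutase *gpm1* (SPAC26F1.06, chromosome I, 5173972 to 5174607, minus strand) had 5853, 8438 and 13827 TPM in glucose starved, nitrogen starved and glucose rich tup11/12/php5d. Its values in tup11/12d were 4771 TPM upon glucose starvation, 8132 upon nitrogen starvation and 11171 under glucose rich conditions, and in WT 2491, 6201 and 7699 TPM. Under each label the order was the same, with glucose starved lowest and glucose rich highest. The ratio of glucose starved to glucose rich was 0.423 in tup11/12/php5d (0.421 to 0.425), 0.427 in tup11/12d (0.425 to 0.429) and 0.324 in WT (0.321 to 0.326). In tup11/12/php5d the log2 ratio of −1.24 came to −0.56 with size factors. The order of the starved libraries then turned round, at 9656 for glucose starved and 7415 for nitrogen starved after division by size factors.

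Enolase *eno101* (SPBC1815.01, chromosome II, 2201237 to 2202556, plus strand) moved least after *tdh1*, with a highest value 2.26 times its lowest (2.63 times with size factors). It had 3822, 4390 and 4997 TPM in glucose starved, nitrogen starved and glucose rich tup11/12/php5d. Libraries of tup11/12d had 2459 TPM upon glucose starvation, 4390 upon nitrogen starvation and 4384 under glucose rich conditions, and those of WT 2900, 3649 and 5568 TPM. No *eno101* ratio was past 2-fold as deposited. The closest was glucose starved over glucose rich in WT, at −0.94 on the log2 scale, which reached −1.24 with size factors. Glucose starved tup11/12/php5d over tup11/12d, at 0.64, reached 1.30.

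Pyruvate kinase, *pyk1* (SPAC4H3.10c, chromosome I, 3845013 to 3846542, minus strand), catalyses the last, irreversible step. It had 1020.5 TPM upon glucose starvation, 2879 upon nitrogen starvation and 3389 under glucose rich conditions in tup11/12/php5d. In tup11/12d it had 971, 2172 and 2685 TPM under glucose starvation, nitrogen starvation and glucose rich conditions, and in WT 1254, 2659 and 2763 TPM. The 3 glucose starved libraries were the lowest of the 9. After division by size factors they were still the lowest, at 1684 in tup11/12/php5d, 1008 in tup11/12d and 1038 in WT, so that tup11/12/php5d then lay above WT. The ratio of glucose starved to glucose rich was 0.301 in tup11/12/php5d (0.299 to 0.303), 0.362 in tup11/12d (0.359 to 0.365) and 0.454 in WT (0.451 to 0.457). *pyk1* was the only member past 2-fold lower upon glucose starvation under every label both as deposited and with size factors. An antisense noncoding transcript is annotated over 59.9% of its coding sequence, and its part in these reads was not tested.

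Upon glucose starvation, more of the 10 genes were called lower than higher under every label in deposited TPM. In tup11/12/php5d this held for all features as well, and there the genes did not stand out as lower. In tup11/12/php5d, *gpm1* and *pyk1* were lower and none was higher, while 7.4% of all features were higher and 36.2% lower. With size factors these shares were 16.1% and 15.5%, *hxk2* and *pgk1* passed 2-fold higher and *pyk1* alone stayed lower. The log2 ratios of *fba1*, *tdh1* and *eno101* then turned to 0.30, 0.39 and 0.29. The members had a median of −0.33 on the log2 scale, above the −0.67 of all features, and with size factors the medians were 0.35 and −0.01. In tup11/12d the call fell on 3 genes, all lower (*fba1*, *gpm1* and *pyk1*), and none was higher, against 16.4% of all features higher and 12.3% lower (12.9% and 14.5% with size factors). With size factors *hxk2* (−1.07) and *pfk1* (−1.10) were lower too. The median was −0.87 over the genes and 0.16 over all features. In WT cells *gpd3* and *hxk2* were higher, and *pgk1*, *gpm1* and *pyk1* were lower, against 18.5% of all features higher and 9.33% lower (11.5% and 14.6% with size factors). With size factors *fba1* and *eno101* were lower too and *hxk2* was no longer higher. The median was −0.74 over the 10 genes and 0.29 over all features, so that 7 of the 10 genes lay below the median feature. Comparisons within a label share its glucose rich library.

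Nitrogen starvation moved few of the genes past 2-fold. In tup11/12/php5d none of the 10 was past 2-fold, against 12.8% of all features higher and 6.47% lower (8.65% and 8.88% with size factors). In tup11/12d, *hxk1* alone was higher, at 2.05-fold (2.02 to 2.08), and none was lower, against 26.9% of all features higher and 9.48% lower (12.5% and 15.2% with size factors). That call was lost with size factors, at 0.51 on the log2 scale. In WT, *gpd3* alone was higher and none was lower, against 16.8% of all features higher and 10.9% lower (11.5% and 14.1% with size factors). The medians of the genes were 0.09 in tup11/12/php5d, 0.10 in tup11/12d and −0.05 in WT, and those of all features were 0.24, 0.53 and 0.29. With size factors the medians of the genes were all below 0, at −0.14, −0.43 and −0.30, beside 0.01, 0.02 and 0.05 for all features. The nitrogen starved and glucose rich media also differ in glucose and in yeast extract, and these differences cannot be told apart from nitrogen starvation.

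**Figure D4:**
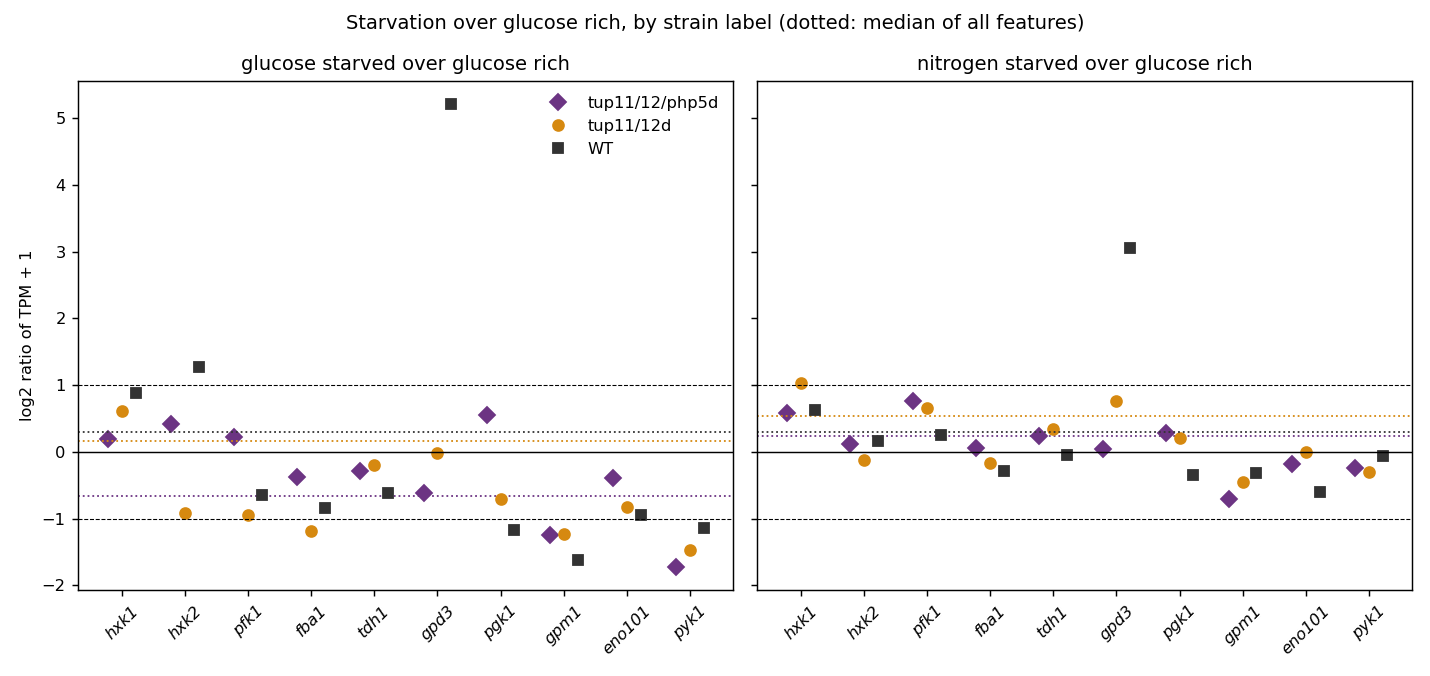
Log2 ratio of TPM + 1 of each of the 10 genes for glucose starved over glucose rich (left) and nitrogen starved over glucose rich (right), 1 point per strain label, each from 2 libraries; dashed lines mark 2-fold and dotted lines the median of all 4810 features per label. *gpd3* in WT stands at 5.21 and 3.06, while *gpm1* and *pyk1* lie below −1 upon glucose starvation under all 3 labels.

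Between tup11/12d and WT, few of the genes and few of all features differed past 2-fold. Under glucose rich conditions *gpd3* alone was higher and none was lower, against 3.22% of all features higher and 1.1% lower (3.8% and 0.707% with size factors). *hxk2* was then higher too, at 1.05 on the log2 scale. *gpd3* was also the only gene called upon nitrogen starvation, at 6.31-fold higher (6.25 to 6.38), against 5.16% of all features higher and 3.14% lower (4.39% and 3.78% with size factors). Upon glucose starvation *hxk2* alone was lower, at 0.401 of WT (0.397 to 0.406), against 3.76% of all features higher and 5.28% lower (6.2% and 1.89% with size factors). Its log2 ratio of −1.32 came to −0.99 with size factors, and *gpm1* then became the only gene called, higher at 1.26 against 0.94 as deposited. The medians of the genes were −0.25 upon glucose starvation, 0.27 upon nitrogen starvation and −0.14 under glucose rich conditions, beside −0.32, 0.03 and −0.18 for all features. With size factors those of the genes were 0.08, 0.17 and 0.04.

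Between tup11/12/php5d and tup11/12d, most calls fell upon glucose starvation, for the 10 genes as for all features. There 5 of the 10 were higher, namely *pgk1*, *pfk1*, *fba1*, *gpd3* and *hxk2*, and *hxk1* was lower. Of all features 5.01% were higher and 32.5% lower, and with size factors these shares were 12.9% and 13.8%. The median of the genes was 0.85, against −0.62 for all features, and 9 of the 10 genes lay above the median feature. With size factors the medians were 1.51 and 0.03, *eno101* joined the higher genes and *hxk1* was no longer lower. *gpd3* was 2.14-fold higher (2.13 to 2.15) and *hxk2* 2.08-fold (2.06 to 2.10). In deposited TPM the smallest changes were those of *pyk1*, at 1.05-fold (1.04 to 1.061), *tdh1*, at 1.20-fold (1.20 to 1.21), and *gpm1*, at 1.23-fold (1.22 to 1.23). With size factors their log2 ratios were 0.74, 0.93 and 0.96, and *hxk1*, at −0.59, changed least.

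In the other media fewer of the genes, and fewer of all features, were called between the same labels. Upon nitrogen starvation *hxk1* was lower and none was higher, against 2.89% of all features higher and 3.12% lower (3.99% and 2.33% with size factors). *gpd3* lay just inside 2-fold there, at 1.98 (1.97 to 1.99), and passed it with size factors. Under glucose rich conditions *gpd3* alone was higher and none was lower, against 3.93% of all features higher and 1.39% lower (2.97% and 1.93% with size factors). With size factors *hxk1* was lower too, at −1.01 on the log2 scale. The medians of the genes were 0.33 upon nitrogen starvation and 0.35 under glucose rich conditions, beside −0.11 and 0.12 for all features. Whether the contrast differs between media was not tested, for want of replicates.

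**Figure D5:**
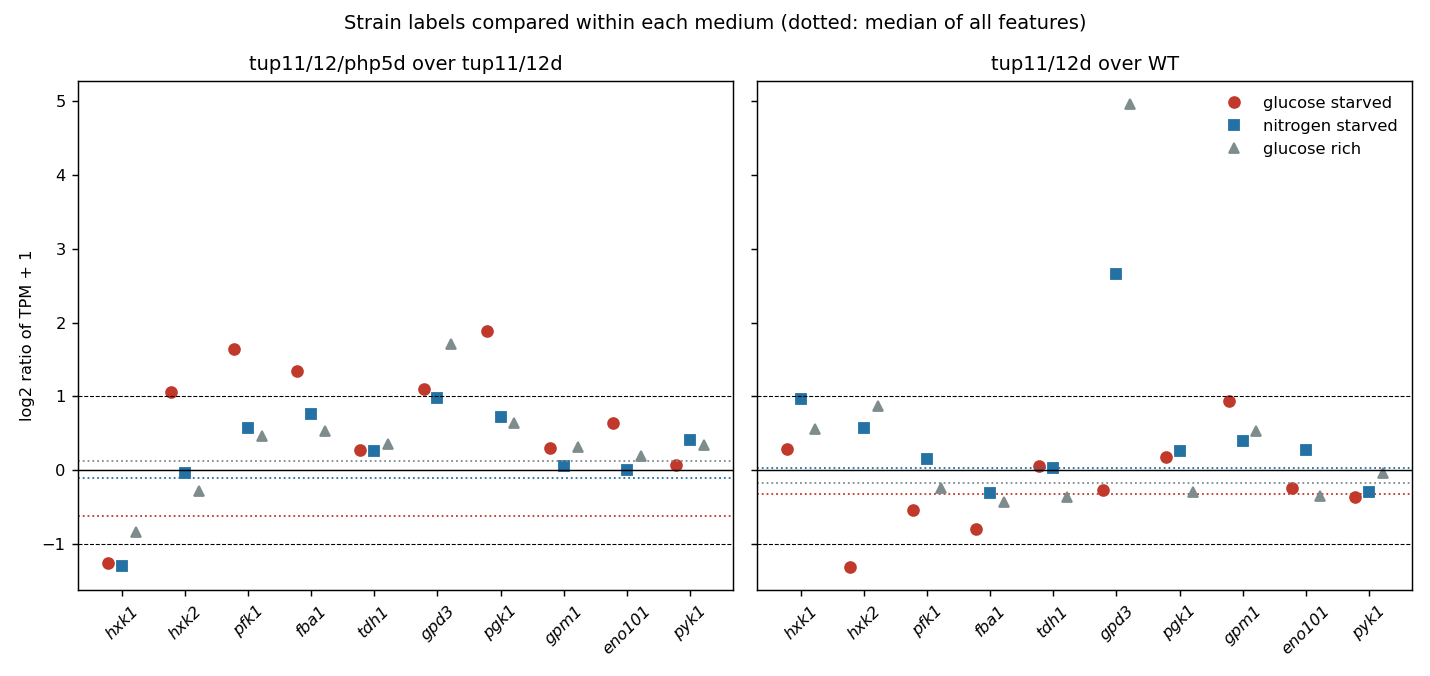
Log2 ratio of TPM + 1 of each of the 10 genes between strain labels within a medium, tup11/12/php5d over tup11/12d (left) and tup11/12d over WT (right), each point from 2 libraries; dashed lines mark 2-fold and dotted lines the median of all 4810 features per medium. Left, the glucose starved points of *pfk1*, *fba1* and *pgk1* lie at 1.64, 1.35 and 1.89; right, *gpd3* stands at 4.96 under glucose rich conditions.

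Over the 9 libraries the members did not all share a profile. In log2(TPM + 1), *pfk1*, *fba1*, *tdh1*, *pgk1*, *gpm1*, *eno101* and *pyk1* had Pearson coefficients of 0.33 to 0.86 with each other (21 pairs, median 0.75). With *hxk1*, *hxk2* and *gpd3* their coefficients ran from −0.71 to 0.24 (21 pairs, median −0.18). With size factors these ranges were 0.49 to 0.97 (median 0.80) and −0.69 to 0.52 (median 0.08). This grouping was made after the values were seen, and the 9 points share strains, media and library scaling. Outside the 10 genes, the 1495 features averaging 100 TPM or more were ranked by the likeness of their profile to the median profile of the members. The closest were *erg11*, a sterol demethylase (r = 0.92), *tsc13*, a reductase of very long fatty acid synthesis (0.88), *oca8* (0.88), the alcohol dehydrogenase *adh1* (0.86) and *ser3*, a phosphoglycerate dehydrogenase of serine synthesis (0.86). *adh1* ran from 2870 TPM in glucose starved tup11/12d to 10184 TPM in nitrogen starved tup11/12/php5d.

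Upstream sequence is shown because the labels name a CCAAT-binding subunit, Php5, and because the stress and glucose factors Atf1 and Rst2 of fission yeast bind CRE and STRE sites. The 1000 bases before each coding start in ASM294v3 (5144 windows) were searched on both strands. The CRE-core TGACGT was present in 14.8% of all windows and in 5 of the 10 members, namely *pfk1*, *fba1*, *tdh1*, *pgk1* and *eno101*. CCAAT was present in 85.1% of all windows and in 9 of the 10, not in *hxk2*. The STRE-core, CCCCTC or CCCCGC, was present in 9.8% of all windows and in *eno101* alone. In *fba1* and *tdh1* the CRE-core forms the palindrome TGACGTCA, which reads as a core on both strands and occurs in 27 windows (0.525%). A match describes the letters only, and a window without one says nothing of the factor.

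The 76 bases around these CRE-cores (RefSeq, ASM294v3, strand of the gene) are printed for the 5 members that hold one, to show how differently the cores lie. Capitals mark the CRE-core or its reverse complement and any CCAAT or its reverse complement, and positions count back from the first coding base:
pfk1, chromosome II, 2300583 to 2300658, minus strand, −364 to −289: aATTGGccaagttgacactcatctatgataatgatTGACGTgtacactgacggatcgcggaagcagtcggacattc
fba1, chromosome II, 1688141 to 1688216, plus strand, −226 to −151: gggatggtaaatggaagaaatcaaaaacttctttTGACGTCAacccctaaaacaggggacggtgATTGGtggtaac
tdh1, chromosome II, 2807269 to 2807344, plus strand, −368 to −293: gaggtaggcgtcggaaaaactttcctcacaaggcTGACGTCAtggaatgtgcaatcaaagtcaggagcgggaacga
pgk1, chromosome II, 4159660 to 4159735, minus strand, −319 to −244: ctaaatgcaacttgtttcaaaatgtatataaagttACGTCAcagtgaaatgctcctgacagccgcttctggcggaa
eno101, chromosome II, 2200664 to 2200739, plus strand, −573 to −498: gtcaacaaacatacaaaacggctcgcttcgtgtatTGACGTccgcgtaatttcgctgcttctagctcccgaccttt
Annotated noncoding transcripts reach into the stretches of *fba1*, *tdh1* and *pgk1*, and no annotated transcript reaches into those of *pfk1* and *eno101*. The core lies at −329 in *pfk1*, −192 in *fba1*, −334 in *tdh1*, −284 in *pgk1* and −538 in *eno101*. Within the 76 bases printed, a CCAAT box stands in *pfk1* and *fba1* only.

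*gpd3*, the gene that differed most, had no CRE-core or STRE-core in its window, and its CCAAT boxes, both on the opposite strand, begin at −530 and −519. They are shown in capitals as the reverse complement, inside the annotated transcript, which starts before them:
gpd3, chromosome II, 578194 to 578223, plus strand, −537 to −508: ctgtggcATTGGcaaagcATTGGcttggtg

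Some steps of the chain have genes outside the 10. Phosphoglucose isomerase (*pgi1*), triose phosphate isomerase (*tpi1*) and a further enolase gene (*eno102*) complete it. *eno102* had 155 TPM upon glucose starvation, 211 upon nitrogen starvation and 68.4 under glucose rich conditions in tup11/12/php5d. Under glucose rich conditions it was low in tup11/12d (5.97 TPM) and WT (7.94 TPM), at 0.136% and 0.143% of *eno101*, and it was higher there upon each starvation. The tup11/12/php5d glucose rich value was 11.5-fold above tup11/12d (10.5 to 12.5). Its coding sequence is 63.8% identical to that of *eno101*, and an antisense transcript covers 90.2% of it. *tpi1* had 3465, 5380 and 9072 TPM in glucose starved, nitrogen starved and glucose rich tup11/12/php5d, 3715, 5382 and 7164 TPM in tup11/12d, and 4057, 5695 and 4851 TPM in WT. The ratio of glucose starved to glucose rich *pgi1* was 0.819 in tup11/12/php5d (0.812 to 0.827), 1.39 in tup11/12d (1.37 to 1.40) and 2.15 in WT (2.13 to 2.17). Of these 3 genes, 1 was past 2-fold higher upon glucose starvation in each mutant label (*eno102*) and 2 in WT (*eno102* and *pgi1*). *tpi1* was lower in tup11/12/php5d, at −1.39 on the log2 scale. Of all features 7.4%, 16.4% and 18.5% were higher in tup11/12/php5d, tup11/12d and WT, and 36.2%, 12.3% and 9.33% lower. With size factors *pgi1* in WT, at 0.80, and *tpi1* in tup11/12/php5d, at −0.71, missed 2-fold, *tpi1* in tup11/12d reached −1.10, and *pgi1* in tup11/12/php5d turned to 0.39.

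Glucose 6-phosphate can also leave glycolysis for the pentose phosphate pathway, which makes NADPH and pentoses. Of 4 genes of it, 1 was past 2-fold higher upon glucose starvation in tup11/12/php5d (*gnd1*). In tup11/12d and in WT 2 were higher (*gnd1* and *tal1* under each label), and none was lower under any label. Of all features 7.4%, 16.4% and 18.5% were higher in tup11/12/php5d, tup11/12d and WT, and 36.2%, 12.3% and 9.33% lower. With size factors *tal1* (1.51) and the transketolase gene *tkt1* (1.10) in tup11/12/php5d passed 2-fold higher too. *gnd1*, for 6-phosphogluconate dehydrogenase, had 10823 TPM in glucose starved tup11/12/php5d, 2271 TPM in glucose starved tup11/12d and 9867 TPM in glucose starved WT, and 975 to 2110 TPM in the other 6 libraries. Its starved value in tup11/12d was thus the odd one out, at 0.230 of WT (0.229 to 0.231), and tup11/12/php5d was 4.76-fold above tup11/12d (4.74 to 4.79). The transaldolase gene *tal1* was 1.79-fold higher upon glucose starvation in tup11/12/php5d (1.77 to 1.81), 4.001-fold in tup11/12d (3.96 to 4.04) and 3.79-fold in WT (3.75 to 3.83). *fbp1*, which reverses the step of *pfk1*, was past 2-fold higher upon both starvations under all 3 labels, with log2 ratios of 1.85 to 8.40. The smallest of these came from low levels in WT, at 21.0 TPM upon nitrogen starvation and 5.11 TPM under glucose rich conditions. Nitrogen starved tup11/12/php5d had 85.3 TPM and nitrogen starved tup11/12d 1612 TPM. *pfk1* itself passed 2-fold upon neither starvation under any label as deposited, and was lower in glucose starved tup11/12d with size factors (−1.10).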

How the data were processed

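RNA was prepared from 1 culture per condition, and poly(A)-selected, nonstrand-specific libraries were made. Per the labels and the methods, the authors processed the reads with fastp, HISAT2, SAMtools and featureCounts, whose versions are not given in the sources used here, on the ASM294v2 genome with a PomBase annotation, and deposited TPM values per feature. The methods speak of protein-coding genes only, while the table also holds other features, and 5113 of its 5323 features are protein-coding. The feature length, an other column of the deposited table, was used to recover the reads behind each TPM value, and 100% came out whole within 0.1 of a read. How reads that fit several places were counted is not stated. Unused columns of per-sample values numbered 0.

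Samples were grouped by their labels. Ratios between libraries were taken with a pseudocount of 1 for log2 values and without it for folds, and exact Clopper-Pearson 95% intervals came from the reads. Features with a mean under 10 TPM were left out of the background. The genes named are the 10 members, the rest of the pathway, *fbp1*, 4 pentose phosphate genes, the genes of the labels with *ura4*, and the 5 features of most similar profile. The members, lists and rules were chosen with earlier results of these data known. The alternatives were pseudocounts of 0.1 and 10, thresholds of 1.5-fold and 3-fold, no minimum TPM, other scalings of the libraries (median-of-ratios size factors, a common upper quartile, TPM without the 10 most abundant features, members over all other features), shares of reads, and shares of protein-coding TPM. The sum of *gpd3* and *tdh1* and the size factors for the background, the summed pair, the levels and the correlations were added after seeing the data. On libraries simulated with counting error only, 100% of reads were recovered, and 98% to 100% of the genes set 4-fold higher or lower were called. For genes left unchanged, the intervals held the true ratio in 94.4% to 97.2% of cases. Changes close to 2-fold were not simulated.

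Gene names, sequences and positions come from RefSeq ASM294v3, which is a later build than that of the table. Of 2742 coding genes with 1 segment, 2741 had the same ends in both, all members among them. The software was Biopython 1.88, matplotlib 3.10.9, scipy 1.17.1, pandas 2.3.3 and numpy 2.4.6 on Python 3.11.15.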

Additional observations from a re-analysis of the deposited data

Results flagged for a closer look

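A pair of genes moved in opposite directions past 1.5-fold under the same contrast in different strain labels. For *hxk2*, the log2 ratio of glucose starved to glucose rich was −0.91 in tup11/12d and 1.27 in WT. For *gpd3* it was −0.62 in tup11/12/php5d and 5.21 in WT, and with size factors the value in tup11/12/php5d turned to 0.06. With 1 library per condition, neither difference was tested.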

How the results depend on the processing

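With 1 library per condition, no replicate could be left out, and no paired analysis was possible because no label or number pairs libraries within a group. Of 108 counts of members under the alternatives, 72 stayed within 1.5 times the count given and 36 did not. Of 732 log2 ratios of members, 438 fell outside the counting interval of the deposited ratio. These included all 120 with size factors and all 120 with a common upper quartile. No ratio past 2-fold changed sign, which the largest shift by a scaling, 0.68, could not bring about. Counts are given here over both directions, which hides some changes of direction: with size factors glucose starvation in tup11/12/php5d had 2 higher and 1 lower in place of 0 and 2, and tup11/12d over WT upon glucose starvation had 1 higher and 0 lower in place of 0 and 1. Shares of all features were computed at 2-fold only, so the counts at 1.5-fold and 3-fold have no background beside them. At 1.5-fold, the starvation counts were 2 (nitrogen) in tup11/12/php5d, 8 (glucose) and 3 (nitrogen) in tup11/12d, and 10 and 3 in WT. The 10 in WT were 3 higher and 7 lower. The strain counts at 1.5-fold were 3 (glucose starved), 2 (nitrogen starved) and 2 (glucose rich) for tup11/12d over WT, and 4 (nitrogen starved) and 3 (glucose rich) for tup11/12/php5d over tup11/12d. At 3-fold, glucose starvation left 1 gene in tup11/12/php5d, 0 in tup11/12d and 2 in WT, and nitrogen starvation left 0 in tup11/12d. The strain counts at 3-fold were 0 for tup11/12d over WT upon glucose starvation, and 2 upon glucose and 0 upon nitrogen starvation for tup11/12/php5d over tup11/12d. With size factors the counts were 5 upon glucose and 0 upon nitrogen starvation in tup11/12d, 2 for tup11/12/php5d over tup11/12d upon nitrogen starvation and 2 under glucose rich conditions, and 2 for tup11/12d over WT under glucose rich conditions. With a common upper quartile they were 1 upon each starvation in tup11/12/php5d, 6 upon glucose and 0 upon nitrogen starvation in tup11/12d, 2 for tup11/12/php5d over tup11/12d upon nitrogen starvation, and 2 for tup11/12d over WT upon glucose starvation. Without the 10 most abundant features, tup11/12d over WT had 2 upon each starvation and tup11/12/php5d over tup11/12d had 2 upon nitrogen starvation, which was also the count against the total of all other features. With *gpd3* and *tdh1* summed, the count was 0 for nitrogen starvation in WT, for tup11/12d over WT upon nitrogen starvation and under glucose rich conditions, and for tup11/12/php5d over tup11/12d under glucose rich conditions. As shares of reads in place of TPM, the 10 genes took 6.08% upon glucose starvation, 6.93% upon nitrogen starvation and 7.80% under glucose rich conditions in tup11/12/php5d, 3.66%, 4.98% and 5.64% in tup11/12d, and 3.52%, 4.35% and 5.54% in WT. The largest shift of a member by size factors was 0.68 on the log2 scale, and 17 of 120 log2 ratios, all short of 2-fold, changed sign. The depth did not limit these values, since the smallest rests on 7222 reads, and the absence of replicates did.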
